A study of Arabidopsis thaliana with 18 samples.

Results

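The FORKED-LIKE genes of Arabidopsis thaliana are a family of plant genes named after FORKED1 (FKD1), and 9 loci of the family were picked by locus identifier out of the 32833 in each deposited table. Loss of FKD1 leaves leaf and cotyledon veins with free ends where they would normally meet and close. FKD1 protein binds phosphoinositides through a pleckstrin homology domain and acts with VAN3, an ARF GTPase-activating protein, in the vesicle traffic on which the directed flow of auxin through provascular cells depends. RABA GTPases mark the trans-Golgi and recycling compartments of that route. FKD1 (AT3G63300), FL1 (AT5G43870), FL2 (AT3G22810) and FL3 (AT4G14740) were the 4 members mutated in the study. The other 5 members, AT5G57770, AT4G32780, AT4G17350, AT5G47440 and AT4G16670, carry no gene symbol in the tables used here and are called by locus.

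Transcripts were measured in 18 stranded mRNA libraries from whole seedlings aged 4 days and grown on diluted Murashige and Skoog medium. The quadruple mutant fkd1 fl1-2 fl2 fl3, labelled flΔ4, was kept in darkness (flΔ4_dark, n = 3). The mutant cry2-1, which lacks the blue light receptor cryptochrome 2, was kept in darkness (cry2_dark, n = 3) or moved out of darkness for 30 min under blue light at 30 µmol per square metre per second (cry2_blue, n = 3). Col-0 wild type received the same blue light (WT_blue, n = 3) or stayed in darkness (WT_dark, n = 6). CRY2 reached at most 0.06 TPM in cry2_blue and was listed at 0 in cry2_dark, against 72.3 to 110 TPM elsewhere. Its neighbours MDH1 and AT1G04420 reached at most 0.22 and 0.08 TPM in cry2 libraries, against 470 to 832 and 59.4 to 123 TPM elsewhere. The position of each lesion in flΔ4 is not given in the sources used here, and a transcript level does not show whether an allele still gives protein. The labels do not say that replicates came from separate cultures, so p-values measure the spread between libraries, which may be technical. In whole seedlings, fewer cells of a type and less RNA per cell cannot be told apart.

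The wild-type dark libraries fell into sets numbered 1-3 and 4-6, and 50.8% of 19703 tested genes differed between them (limma on log2(TPM + 1), Benjamini-Hochberg adjusted p under 0.05 over all genes tested, the call rule used throughout). The file headers give WT_dark 1-3 and cry2_dark prefixes of their own, both blue groups a common prefix, and WT_dark 4-6 and flΔ4_dark another. What the prefixes stand for is not given in the sources used here. Only flΔ4_dark against WT_dark 4-6 and cry2_blue against WT_blue compare libraries of one prefix. In all other comparisons, light or genotype cannot be told apart from what the prefixes stand for. Which dark set belongs with which mutant was taken from how the titles are numbered, with WT_dark 4-6 for flΔ4, WT_dark 1-3 for the light and cry2 comparisons. Members' results that use dark wild type are given against both sets, and these comparisons share libraries. TPM keep no read totals, so depth is unknown, and TPM of different genes can be compared because they are scaled by length. Between 18493 and 19645 genes reached 1 TPM in a library, and all 9 members were above 0 in every library and passed the filter (a mean of at least 1 TPM) in every comparison.

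The members were spread over chromosomes 3, 4 and 5, with 6 to 8 coding exons and a coding length of 1218 to 1497 bases in the RefSeq annotation of TAIR10.1, whose nuclear chromosomes are those of TAIR10, the build named in the submitters' processing notes. FKD1 lies at chr3:23384988-23387842 on the plus strand and FL1 at chr5:17631426-17635945 on the minus strand. FL2 lies at chr3:8068418-8071795 (plus) and FL3 at chr4:8450158-8454159 (minus). AT4G17350 lies at chr4:9701132-9703574 (plus), AT5G47440 at chr5:19243531-19245648 (minus) and AT4G16670 at chr4:9385119-9387754 (plus). AT5G57770 lies at chr5:23400864-23403150 (minus) and AT4G32780 at chr4:15808852-15811926 (plus). The annotation describes AT4G32780 as a phosphoinositide binding protein and gives the DUF828 name, auxin canalization protein, to the others.

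The closest pair in coding sequence was AT4G17350 and AT5G47440, with 82.3% identical bases over 1212 aligned bases, and the next was FL2 and FL3, with 80.8% over 1397. The pair is printed because its members went opposite ways in the light comparison, and because reads from the stretches they share could be counted at either locus. Their longest identical stretch is 41 bases long and lies within one exon of each gene, at chr4:9702988-9703028 on the plus strand and chr5:19243906-19243946 on the minus strand (TAIR10.1). Below it stands with 40 coding bases on each side, introns removed, with the 8 positions at which the genes differ in capitals.
AT4G17350: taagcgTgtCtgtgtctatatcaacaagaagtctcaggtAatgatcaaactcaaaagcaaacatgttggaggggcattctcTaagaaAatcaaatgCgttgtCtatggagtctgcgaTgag
AT5G47440: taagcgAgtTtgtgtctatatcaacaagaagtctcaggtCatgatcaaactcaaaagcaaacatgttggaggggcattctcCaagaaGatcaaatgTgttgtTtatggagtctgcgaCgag

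The 250 bases before the annotated gene start were compared as well, and none of the 9 windows overlapped an exon. Shown are FL1, the member with the lowest level in flΔ4, and the AT4G17350 and AT5G47440 pair, 5′ to 3′ on the strand of each gene, from RefSeq TAIR10.1, with a G-box in capitals. The windows are chr5:17635946-17636195 (minus) for FL1, chr4:9700882-9701131 (plus) for AT4G17350 and chr5:19245649-19245898 (minus) for AT5G47440.
FL1: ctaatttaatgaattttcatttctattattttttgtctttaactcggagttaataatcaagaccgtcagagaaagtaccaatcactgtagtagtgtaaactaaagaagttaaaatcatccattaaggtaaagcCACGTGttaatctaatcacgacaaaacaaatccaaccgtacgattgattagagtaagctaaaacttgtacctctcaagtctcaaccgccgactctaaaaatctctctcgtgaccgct
AT4G17350: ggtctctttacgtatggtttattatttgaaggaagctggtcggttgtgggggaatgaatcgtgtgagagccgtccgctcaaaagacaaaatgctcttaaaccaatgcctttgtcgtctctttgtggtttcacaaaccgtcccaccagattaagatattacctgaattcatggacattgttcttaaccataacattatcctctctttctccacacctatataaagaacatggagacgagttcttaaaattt
AT5G47440: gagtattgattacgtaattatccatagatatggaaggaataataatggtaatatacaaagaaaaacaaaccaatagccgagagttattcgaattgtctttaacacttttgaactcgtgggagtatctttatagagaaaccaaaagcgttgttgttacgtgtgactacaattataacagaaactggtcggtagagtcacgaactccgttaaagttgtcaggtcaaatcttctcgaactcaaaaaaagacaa
The motifs searched on both strands were the G-box CACGTG, a site of bZIP and bHLH light factors, the I-box GATAAG, and the auxin response element TGTCTC. The G-box stood in FL1 alone, starting 117 bases before the gene, and 6.49% of 27443 windows of all nuclear protein-coding genes held it. The I-box stood in FL2 alone, as 2 copies, and 12.3% of windows held it. No member's window held TGTCTC, which 10.9% of windows held. The windows of the pair shared no run longer than 9 bases, against 41 bases in the coding sequence.

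AT4G16670 was the most abundant member in every library, at 23.97 to 72.43 TPM, and supplied 40.1% to 65.7% of the summed TPM of the family. FL3 came next on average, with a mean of 10.6 TPM over the 18 libraries and a range of 6.08 to 19.3 TPM. FKD1 ranged from 3.24 to 8.76 TPM and FL2 from 3.09 to 6.19 TPM, the narrowest range of the 9 as a ratio. FL1 ranged from 0.13 to 6.90 TPM, AT5G57770 from 2.22 to 8.07 TPM and AT4G32780 from 2.03 to 6.82 TPM. The pair AT4G17350 and AT5G47440 was at 1.20 to 4.71 TPM and 0.84 to 5.39 TPM. The summed TPM of the family was 59.8 to 69.2 in cry2_blue and 66.4 to 72.2 in WT_blue, against 89.5 to 92.4 in flΔ4_dark, 91.9 to 106 in cry2_dark, 82.1 to 110 in WT_dark 4-6 and 89.3 to 97.3 in WT_dark 1-3. No blue library reached the lowest dark library in this sum, of which AT4G16670 was the largest part in every library.

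**Figure D1:**
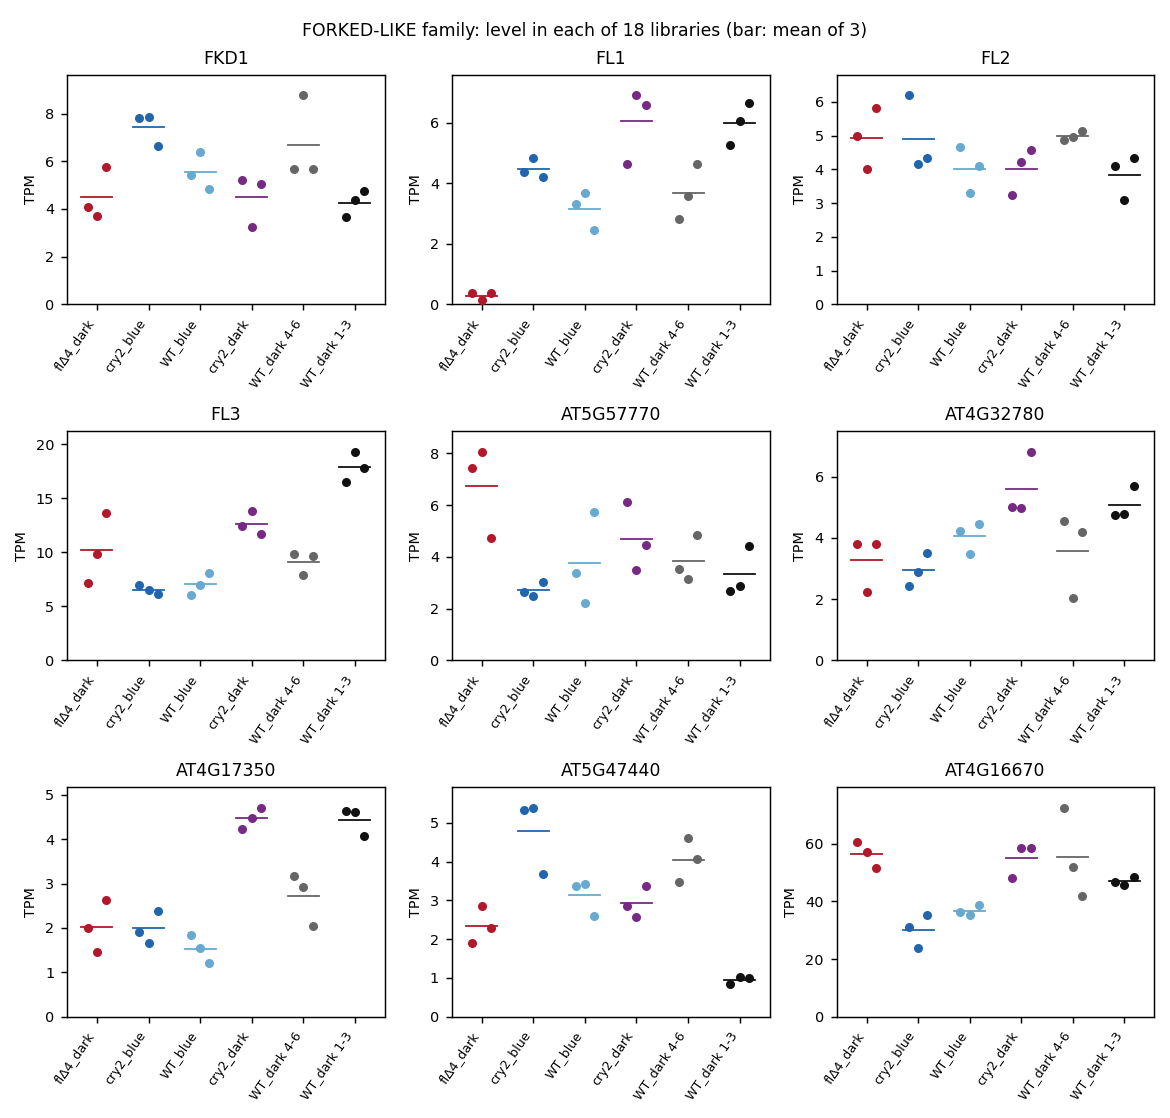
TPM (linear axis from 0) of each member in the 18 libraries, by set, with the mean of 3 libraries as a bar. FL1 lies near 0 in flΔ4_dark alone, FL3 is highest in WT_dark 1-3 (16.5 to 19.3 TPM), and AT5G47440 is lowest there (0.84 to 1.02 TPM).

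In dark flΔ4 seedlings, 1 of the 9 members, FL1, was lower than in WT_dark 4-6, and the other 3 mutated members did not pass the test. Over all 19411 genes tested, 0.304% were called and 0.0824% were called lower. FL1 averaged 0.287 ± 0.136 TPM in flΔ4_dark and 3.67 ± 0.908 TPM in WT_dark 4-6 (SD, n = 3 each), a mean 12.8-fold lower. Every flΔ4 library was below every other library of the study for FL1. On the log2(TPM + 1) scale, which understates changes of low genes, the change was -1.85 ± 0.25 (SE, adjusted p = 0.0378). The call was lost without WT_dark 5 (adjusted p = 0.141), WT_dark 6 (0.178), flΔ4_dark 1 (0.0998) or flΔ4_dark 2 (0.0841), with a log2 change of -1.70 to -1.98 over all 6 ways of leaving out a library. Against WT_dark 1-3 FL1 was lower too (-2.44, adjusted p = 3.31e-05).

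FKD1, whose loss alone opens vein loops, averaged 4.51 ± 1.10 TPM in flΔ4_dark and 6.70 ± 1.78 TPM in WT_dark 4-6 (SD, n = 3 each). Its log2 change was -0.48 with a 95% interval of -1.01 to 0.05 (adjusted p = 0.276), and against WT_dark 1-3 it was 0.05. FL2, its relative with the steadiest level, averaged 4.93 ± 0.91 TPM in flΔ4_dark and 4.99 ± 0.13 TPM in WT_dark 4-6, with an interval of -0.46 to 0.40 on the log2 scale, and against WT_dark 1-3 its change was 0.29 (adjusted p = 0.261). FL3 was at 7.16 to 13.6 TPM in flΔ4_dark, against 7.95 to 9.84 TPM in WT_dark 4-6, with an interval of -0.40 to 0.62. These intervals leave out a fall as large as that of FL1 for each of the 3 genes. Against WT_dark 1-3 FL3 was lower (-0.79, adjusted p = 0.0120), and its sign was opposite to that against WT_dark 4-6.

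The members outside the mutated 4 gave no call against WT_dark 4-6. AT5G57770 was at 7.44, 8.07 and 4.73 TPM in flΔ4_dark, against 3.55, 3.15 and 4.84 TPM in WT_dark 4-6. The first 2 flΔ4 libraries were above all others in the study, while flΔ4_dark 3 lay inside the wild-type range. Its log2 change of 0.66 ± 0.24 (SE) had an adjusted p of 0.176, and without flΔ4_dark 3 it was 0.87 (adjusted p = 0.0367). Against WT_dark 1-3 it was higher (0.83, adjusted p = 0.0183). Its 404 bases of overlap with AT5G57760 on the opposite strand belong to a gene at 316 to 426 TPM in flΔ4_dark and 285 to 399 TPM in WT_dark 4-6. The kit keeps strand, but whether counting used it is not given in the sources used here, so reads of such overlaps may not be told apart.

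AT5G47440 was at 1.91, 2.85 and 2.28 TPM in flΔ4_dark, against 3.47, 4.60 and 4.08 TPM in WT_dark 4-6. These ranges did not overlap, as for 25.1% of all genes in this comparison, and the log2 change of -0.60 ± 0.21 (SE) had an adjusted p of 0.170. Against WT_dark 1-3, at 0.84 to 1.02 TPM, the same libraries were higher (0.77, adjusted p = 0.0158). AT4G17350 was at 1.45 to 2.63 TPM in flΔ4_dark, against 2.05 to 3.17 TPM in WT_dark 4-6 (adjusted p = 0.498) and 4.07 to 4.63 TPM in WT_dark 1-3 (-0.86, adjusted p = 0.00813). With WT_dark 1-3 as the dark wild type, 5 members and 49.7% of all genes were called. AT4G32780 was at 2.23 to 3.80 TPM in flΔ4_dark, against 2.03 to 4.56 TPM in WT_dark 4-6, and AT4G16670 at 51.5 to 60.7 TPM, against 41.9 to 72.4 TPM. Against WT_dark 1-3 their log2 changes were -0.53 (adjusted p = 0.0676) and 0.26 (0.0857). AT4G06410 and AT4G16680, which overlap AT4G16670 on the opposite strand, were at 2.04 and 1.03 in flΔ4_dark against WT_dark 4-6. Neither was called (adjusted p = 0.0868 and 0.0732), and their part was not tested. The median log2 change of the 9 members was -0.08, against -0.12 over all genes tested.

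**Figure D2:**
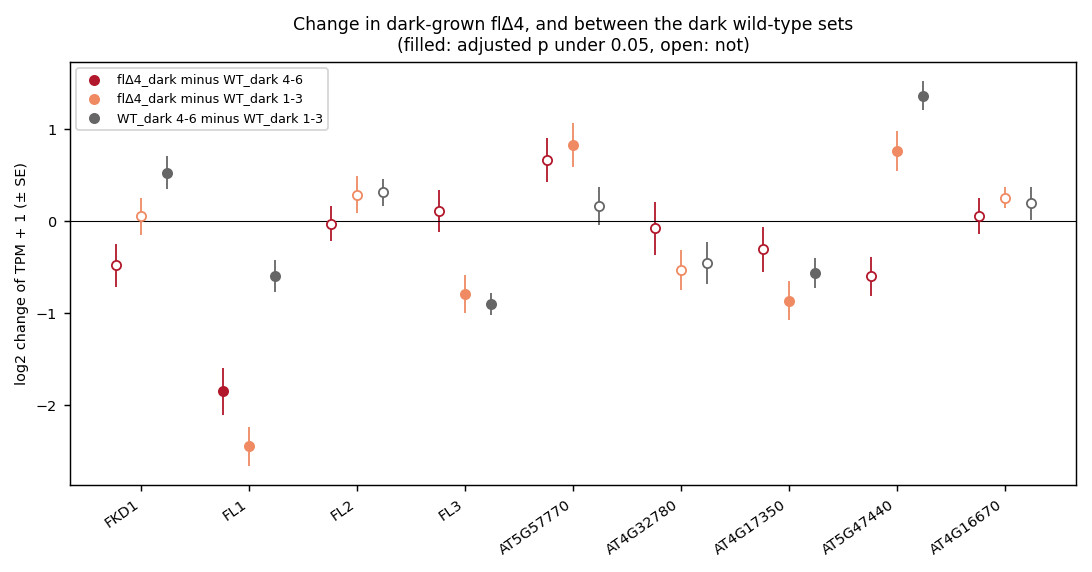
Change of each member on the log2(TPM + 1) scale (vertical axis, bars ± SE) in flΔ4_dark against WT_dark 4-6 and against WT_dark 1-3, and between the dark wild-type sets, with filled points for adjusted p under 0.05. FL1 is lower in flΔ4 against both sets, at -1.85 and -2.44, while FL3 and AT5G47440 change sign with the set.

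FL3, AT4G17350 and AT4G16670 were lower after 30 min of blue light in both genotypes, in cry2 against cry2_dark and in wild type against WT_dark 1-3, and AT5G47440 was higher. Blue and dark libraries also differ in header prefix, so a fall or rise here cannot be assigned to light alone. Against WT_dark 4-6, FL3 and AT5G47440 were not called. In cry2, 6 of the 9 members were called (2 higher, 4 lower), against 55.9% of all 19985 genes tested (25.8% higher, 30.2% lower). In wild type, 5 were called against WT_dark 1-3 (1 higher, 4 lower), beside 61.6% of all genes (28.7% higher, 32.9% lower), so the share of members called was close to that of genes at large. The median log2 change of the members was -0.59 in cry2 and -0.27 in wild type, against -0.05 and -0.04 over all genes.

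FL3, second in mean level, was at 6.98, 6.49 and 6.19 TPM in cry2_blue, compared with 12.4, 13.9 and 11.7 TPM in cry2_dark. In wild type it was at 6.08, 7.02 and 8.12 TPM in WT_blue, against 16.5, 19.3 and 17.8 TPM in WT_dark 1-3. Blue and dark ranges did not overlap in either genotype, as for 64.4% and 66% of all genes. The log2 changes were -0.85 ± 0.12 in cry2 (SE, adjusted p = 7.14e-05) and -1.23 ± 0.12 in wild type (2.44e-06). Against WT_dark 4-6, at 7.95 to 9.84 TPM, the change in wild type was -0.33 (adjusted p = 0.0707).

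AT4G17350 was at 1.92, 1.66 and 2.39 TPM in cry2_blue, compared with 4.24, 4.48 and 4.71 TPM in cry2_dark, giving a log2 change of -0.88 ± 0.15 (SE, adjusted p = 2.72e-04). In wild type it was at 1.85, 1.54 and 1.20 TPM in WT_blue, against 4.63, 4.62 and 4.07 TPM in WT_dark 1-3, giving a change of -1.11 ± 0.15 (3.10e-05). Every blue library lay below every library of these dark sets. It was also lower against WT_dark 4-6, at 3.17, 2.92 and 2.05 TPM (-0.55, adjusted p = 0.0296), and with AT4G16670 it was one of 2 members called there, against 29.1% of all genes.

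AT5G47440, its closest relative, was at 5.34, 5.39 and 3.67 TPM in cry2_blue, compared with 2.86, 2.57 and 3.36 TPM in cry2_dark, giving a log2 change of 0.55 ± 0.16 (SE, adjusted p = 0.0121). In wild type it was at 3.37, 3.43 and 2.61 TPM in WT_blue, against 0.84, 1.02 and 1.00 TPM in WT_dark 1-3, giving a change of 1.08 ± 0.16 (9.26e-05). Within each genotype, all blue libraries lay above the dark set given here, while the ranges of WT_blue and cry2_dark overlapped. WT_blue lay below WT_dark 4-6, at 3.47 to 4.60 TPM, and that change of -0.29 was not called (adjusted p = 0.209). The call in cry2 was lost without cry2_blue 1 or cry2_blue 2 (adjusted p = 0.0515 and 0.0509). AT5G47435, which shares 458 bases with it on the opposite strand, moved in the same direction, with 112 to 134 TPM in cry2_blue against 79.4 to 86.2 TPM in cry2_dark. In wild type AT5G47435 was at 88.3 to 124 TPM in WT_blue against 69.9 to 71.1 TPM in WT_dark 1-3. Its part in the result was not tested.

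AT4G16670 was at 31.0, 23.97 and 35.2 TPM in cry2_blue, compared with 48.2, 58.6 and 58.5 TPM in cry2_dark (-0.86 ± 0.13, SE, adjusted p = 9.60e-05). In wild type it was at 36.3, 35.4 and 38.7 TPM in WT_blue, against 46.8, 45.7 and 48.5 TPM in WT_dark 1-3 (-0.35 ± 0.13, adjusted p = 0.0316) and 72.4, 51.8 and 41.9 TPM in WT_dark 4-6 (-0.54, adjusted p = 0.0447). No blue library reached any dark library of the study. The call against WT_dark 1-3 was lost without WT_dark 1 (adjusted p = 0.0685), WT_dark 2 (0.0558), WT_dark 3 (0.0849), WT_blue 1 (0.0709) or WT_blue 2 (0.0829). The non-coding gene AT4G06410, which shares 1092 bases with AT4G16670 on the opposite strand, was higher in blue light in both genotypes (2.52 in cry2 and 2.11 in wild type on the log2 scale, adjusted p = 1.86e-05 and 5.36e-05), the opposite direction. AT4G16680, which shares 362 bases on the opposite strand, was higher too (2.00 and 0.80, adjusted p = 5.76e-08 and 1.05e-04). The part of these neighbours in the result was not tested.

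FL1 was at 4.37, 4.82 and 4.22 TPM in cry2_blue, compared with 4.65, 6.90 and 6.58 TPM in cry2_dark, and did not pass (-0.35, adjusted p = 0.0856). In wild type it was at 3.30, 3.67 and 2.45 TPM in WT_blue, against 5.27, 6.07 and 6.66 TPM in WT_dark 1-3, and fell by 0.76 on the log2 scale (adjusted p = 0.00132). Against WT_dark 4-6, at 2.81 to 4.62 TPM, the ranges overlapped and the change was -0.17 (adjusted p = 0.517). FKD1 was at 7.81, 7.87 and 6.62 TPM in cry2_blue, compared with 5.21, 3.24 and 5.03 TPM in cry2_dark, and rose by 0.64 ± 0.17 (SE, adjusted p = 0.00601). AT3G63310, which shares 125 bases with FKD1 on the opposite strand, rose in cry2 too (0.61, adjusted p = 0.00182). It also rose in wild type against WT_dark 1-3 (0.74, adjusted p = 3.56e-04), and its part in the result was not tested. In wild type FKD1 did not pass, at 0.31 against WT_dark 1-3 (adjusted p = 0.120) and -0.22 against WT_dark 4-6 (0.410). AT4G32780 was at 2.44, 2.90 and 3.50 TPM in cry2_blue, compared with 5.00, 4.99 and 6.82 TPM in cry2_dark, and fell by 0.74 (adjusted p = 0.00154). Its change in wild type was -0.27 against WT_dark 1-3 (adjusted p = 0.158) and 0.18 against WT_dark 4-6 (0.555). FL2 and AT5G57770 passed in no light comparison.

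**Figure D3:**
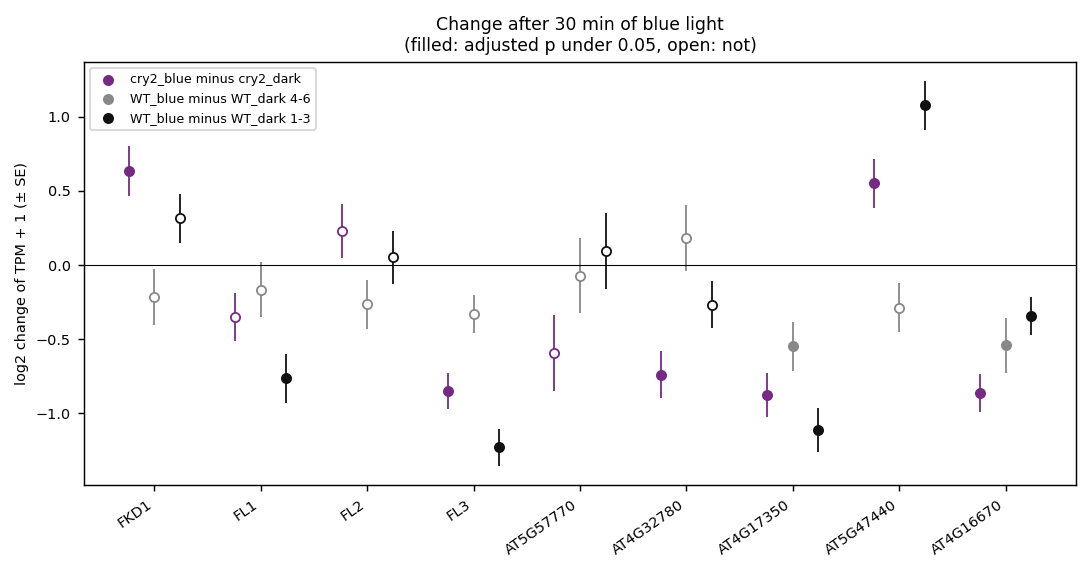
Change of each member after 30 min of blue light on the log2(TPM + 1) scale (vertical axis, bars ± SE), in cry2 and in wild type against each dark set, with filled points for adjusted p under 0.05. AT4G17350 and AT4G16670 are below 0 and filled in all 3 comparisons, while AT5G47440 is at 0.55 and 1.08 in 2 of them and at -0.29 against WT_dark 4-6.

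A test of the difference in light response between cry2 and wild type (the interaction in limma, with WT_dark 1-3) called no member (0 of 9, beside 2.81% of all genes). An unadjusted p under 0.05 was reached by 3 members, and the share of all genes at that limit was not computed. The smallest adjusted p was that of AT4G16670 (0.139), whose response was 0.52 lower in cry2 on the log2 scale, with a 95% interval of -0.91 to -0.13, and with WT_dark 4-6 it was -0.32 (adjusted p = 0.399). Its opposite-strand neighbour AT4G16680 had an interaction of 1.20 with WT_dark 1-3 (adjusted p = 0.00791), and the part of this neighbour was not tested. FKD1, called in cry2 and not in wild type, had an interaction of 0.32 with an interval of -0.19 to 0.83. With WT_dark 4-6 as the dark wild type, FKD1 (0.85, adjusted p = 0.0402) and AT5G47440 (0.84, adjusted p = 0.0247) were called, as were 22.5% of all genes, and the interaction of AT5G47440 had the opposite sign with WT_dark 1-3 (-0.53).

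Between blue-lit cry2 and blue-lit wild type, libraries that share a header prefix, no member was called (0 of 9 by limma, beside 3.34% of all genes). At an unadjusted p under 0.05 by limma there were 5 members, and the share of all genes at that limit was not computed. AT5G47440 had the smallest p of the members, with a log2 difference of 0.48 ± 0.16 (SE, adjusted p = 0.122) and no overlap, at 3.67 to 5.39 TPM in cry2_blue against 2.61 to 3.43 TPM in WT_blue. FL1 and FKD1 were also above the WT_blue range in all 3 cry2_blue libraries and AT4G16670 below it, so the ranges of 4 members did not overlap, as for 24.2% of all genes. FL1 was at 4.22 to 4.82 TPM in cry2_blue against 2.45 to 3.67 TPM in WT_blue (adjusted p = 0.172). Its opposite-strand neighbour AT5G43860, which shares 913 bases with it, was higher in cry2_blue, at 2.65 to 4.82 TPM against 0.15 to 0.72 TPM in WT_blue (1.62 on the log2 scale, adjusted p = 0.0135), and its part in the difference was not tested.

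In darkness, cry2 differed from WT_dark 1-3 in 2 of the 9 members (1 higher, 1 lower), against 12.9% of all genes (10% higher, 2.89% lower). AT5G47440 was at 2.86, 2.57 and 3.36 TPM in cry2_dark, against 0.84, 1.02 and 1.00 TPM in WT_dark 1-3, giving a log2 change of 1.00 ± 0.16 (SE, adjusted p = 0.00267). The lowest cry2 library was well above the highest of these wild-type libraries. FL3 was at 12.4, 13.9 and 11.7 TPM in cry2_dark, against 16.5, 19.3 and 17.8 TPM in WT_dark 1-3 (-0.47 ± 0.12, adjusted p = 0.0255). The ranges of these 2 members did not overlap, as for 39.2% of all genes. The call of FL3 was lost without WT_dark 2 (adjusted p = 0.110), WT_dark 3 (0.0614), cry2_dark 1 (0.0676) or cry2_dark 3 (0.106). Against WT_dark 4-6 both signs turned: AT5G47440 was at -0.36 (adjusted p = 0.104) and FL3 at 0.43 (0.0181), with FL1 (0.60) and AT4G17350 (0.57) called higher beside it, as 40.7% of all genes were called.

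The dark wild-type sets differed from each other in 5 members (2 higher, 3 lower in WT_dark 4-6), against 50.8% of all genes (29.8% higher, 21.1% lower), and the ranges of 7 did not overlap, as for 61.5% of all genes. AT5G47440 averaged 4.05 ± 0.57 TPM in WT_dark 4-6 and 0.953 ± 0.099 TPM in WT_dark 1-3 (SD, n = 3 each), a mean 4.25-fold higher in libraries that carry one genotype and treatment label (1.37 ± 0.16 on the log2 scale, SE, adjusted p = 2.92e-04). AT5G47435, which overlaps AT5G47440 on the opposite strand, was higher in WT_dark 4-6 too (0.75, adjusted p = 3.84e-04), and its part was not tested. FL3 averaged 9.14 ± 1.04 TPM in WT_dark 4-6 and 17.9 ± 1.41 TPM in WT_dark 1-3 (-0.90, adjusted p = 4.92e-04). AT4G17350 (-0.56), FL1 (-0.60) and FKD1 (0.53) were called too. AT4G17350 was not called without WT_dark 1, 2 or 6 (adjusted p = 0.0692, 0.0667 and 0.0618), FL1 not without WT_dark 2 or 3 (0.0614 and 0.0697), and FKD1 not without WT_dark 1, 2, 3 or 5 (0.0555 to 0.128).

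The ratio within a library of the closest pair, AT5G47440 over AT4G17350, does not depend on the scaling of TPM. Reads of AT5G47435, which overlaps AT5G47440 on the opposite strand, could still enter the ratio, and their part was not tested. The ratio was 1.54 to 3.25 in cry2_blue, against 0.574 to 0.713 in cry2_dark, and 1.82 to 2.23 in WT_blue, against 0.181 to 0.246 in WT_dark 1-3. The balance of the pair lay on the AT5G47440 side in every blue library and on the AT4G17350 side in every library of these dark sets. In flΔ4_dark it was 0.867 to 1.97, against 1.09 to 1.99 in WT_dark 4-6, so the dark libraries lay on both sides of 1. Mean log2 ratios differed by 1.88 between cry2_blue and cry2_dark and by 3.27 between WT_blue and WT_dark 1-3, each with a two-sided exact permutation p of 0.1, the smallest that 3 libraries against 3 allow. Between WT_blue and WT_dark 4-6 the difference was 0.45 (exact permutation p = 0.2). The second pair, FL3 over FL2, was at 1.13 to 1.56 in cry2_blue, against 2.57 to 3.83 in cry2_dark, and at 1.30 to 2.13 in WT_blue, against 4.03 to 6.26 in WT_dark 1-3. Its differences of -1.23 and -1.41 had the same exact permutation p of 0.1. FL3 over FL2 was 1.44 to 2.47 in flΔ4_dark, against 1.60 to 2.02 in WT_dark 4-6 (0.15, exact permutation p = 0.6). In all, 14 such differences were computed, over 7 comparisons and 2 pairs, and none can pass 0.05.

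**Figure D4:**
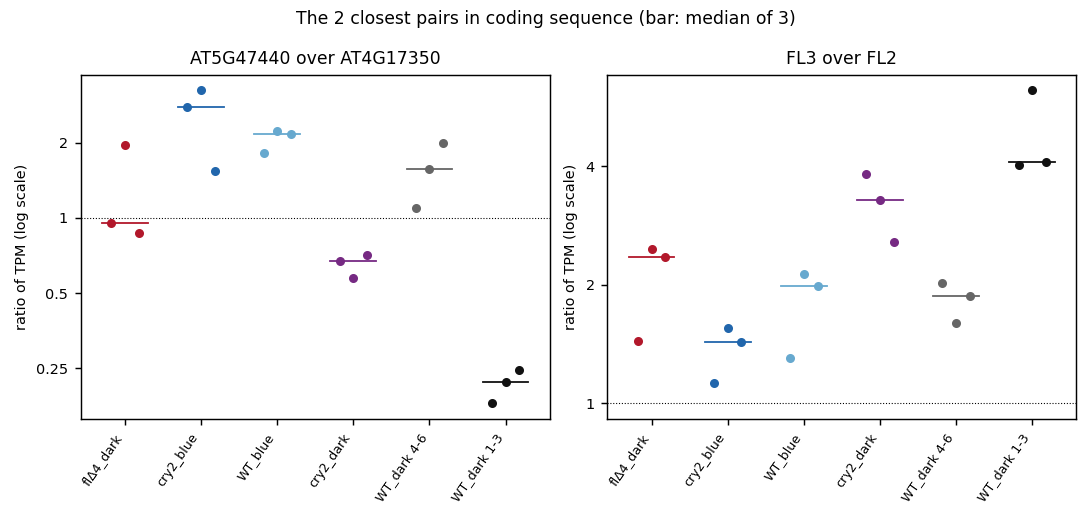
Ratio of TPM within each library (log axis, dotted line at 1, bars are medians of 3) for the closest pairs in coding sequence. AT5G47440 over AT4G17350 lies at 0.181 to 0.246 in WT_dark 1-3 and above 1.5 in both blue groups, with WT_dark 4-6 at 1.09 to 1.99.

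Lists of genes of ARF-dependent traffic and of vein patterning gave no call in flΔ4 against WT_dark 4-6 (limma, 0.304% of all genes called). These were 0 of 8 tested genes of the ARF and phosphoinositide list, 0 of 22 RABA genes and 0 of 11 genes of auxin canalisation and vein patterning. The median log2 changes of the lists were -0.30, -0.16 and -0.26, against -0.12 over all genes. VAN3, the ARF GTPase-activating protein, was at 10.8 to 14.7 TPM in flΔ4_dark, against 14.3 to 15.4 TPM in WT_dark 4-6 (-0.22, adjusted p = 0.433). RABA1c was at 10.02 to 16.61 TPM in flΔ4_dark, against 15.99 to 21.58 TPM in WT_dark 4-6 (-0.43, adjusted p = 0.261). Against WT_dark 1-3 both genes were lower in flΔ4 (-0.75 and -1.22, adjusted p = 0.00251 and 6.00e-04), with 6 of 9, 10 of 22 and 6 of 11 genes of the lists called, beside 49.7% of all genes.

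In blue light, genes of these lists were called in both directions. Of the ARF and phosphoinositide list, 2 of 9 rose and 5 fell in wild type against WT_dark 1-3, of the RABA list 0 rose and 11 of 22 fell, and of the canalisation list 0 rose and 8 of 11 fell (61.6% of all genes called, 28.7% higher and 32.9% lower). GNOM, an ARF exchange factor, fell most in the first list (-1.65, adjusted p = 2.63e-04), followed by VAN3 (-1.02, 5.37e-06) and BIG5, another exchange factor (-0.96, 1.37e-05). GNOM was at 0 to 0.15 TPM in WT_blue, against 1.74 to 3.15 TPM in WT_dark 1-3 in single libraries. AGD1 and AGD2, relatives of VAN3, rose against WT_dark 1-3 (0.59 and 0.83), but were at -0.18 and -0.21 against WT_dark 4-6 (adjusted p = 0.446 and 0.276). RABA3 (-1.68), RABA1c (-1.33) and RABA1d (-1.02) fell most among the RABA GTPases. In the third list TMO5 (-1.74), a bHLH factor of the early vasculature, BRL2 (-1.49), a brassinosteroid receptor relative of provascular cells, and CVP1 (-1.37), a sterol methyltransferase, fell most. Against WT_dark 4-6, BIG5 (-0.43), RABA3 (-0.98), RABA1d (-0.52), TMO5 (-0.65) and CVP1 (-0.53) were also called lower, VAN3 and RABA1c too (-0.48 and -0.54), while BRL2 was not (-0.36, adjusted p = 0.149). GNOM was at 0.18 to 0.69 TPM in WT_dark 4-6 and did not pass the filter there.

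In cry2 after blue light, 2 of 9 genes of the ARF and phosphoinositide list rose and 4 fell, 0 of 22 RABA genes rose and 16 fell, and 2 of 11 canalisation genes rose and 7 fell, beside 25.8% of all genes higher and 30.2% lower. VAN3 was at 11.7 to 14.1 TPM in cry2_blue, compared with 19.0 to 23.7 TPM in cry2_dark (-0.71, adjusted p = 1.46e-04). Against WT_dark 4-6 in place of 1-3, the lists gave 0 higher and 5 lower of 8, 1 higher and 9 lower of 22, and 0 higher and 4 lower of 11 in wild type, where 29.1% of all genes were called. Between cry2 and WT_dark 1-3 the lists gave 0 of 9, 3 of 22 (all higher) and 1 of 11 (lower), beside 12.9% of all genes, and between cry2_blue and WT_blue 1 of 9, 1 of 22 and 1 of 11, beside 3.34%. Between WT_dark 4-6 and WT_dark 1-3 they gave 7 of 9 (3 higher), 7 of 22 (0 higher) and 6 of 11 (0 higher), beside 50.8% of all genes.

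Tissue markers moved between the same sets as these genes. The summed TPM of the 7 vascular markers was 51.6 to 112 in flΔ4_dark, 109 to 159 in cry2_blue, 86.8 to 121 in WT_blue and 93.5 to 131 in WT_dark 4-6, against 265 to 323 in cry2_dark and 306 to 312 in WT_dark 1-3. That of the 8 root markers was 65.8 to 97.7 in the first 4 sets, against 174 to 222 in cry2_dark and 225 to 251 in WT_dark 1-3, and COBL9, EXPA7, PLT2 and RHD6 reached at most 0.55 TPM in the first 4 sets. In wild type after blue light, 0 of 7 vascular and 0 of 4 tested root markers rose and 5 and 4 fell against WT_dark 1-3 (61.6% of all genes called, 32.9% lower), while between flΔ4_dark and WT_dark 4-6 none of them was called. Of the 5 shoot apex and stomatal markers, WUS was at or near 0 in every library. The summed TPM was 135 to 163 in flΔ4_dark, against 120 to 129 in WT_dark 4-6, most of it from AS1, with a mean of 143 TPM against 105 TPM. The median log2 change of the 4 tested markers was -0.91, with SPCH at -1.59, TMM at -1.49 and STM at -0.33, and none was called. AT4G17350, AT4G32780, VAN3 and RABA1c were higher in every cry2_dark and WT_dark 1-3 library than in any library of the other 4 sets. The remaining members of the family did not separate in this way. The part of the tissue markers in these results was not tested.

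**Figure D5:**
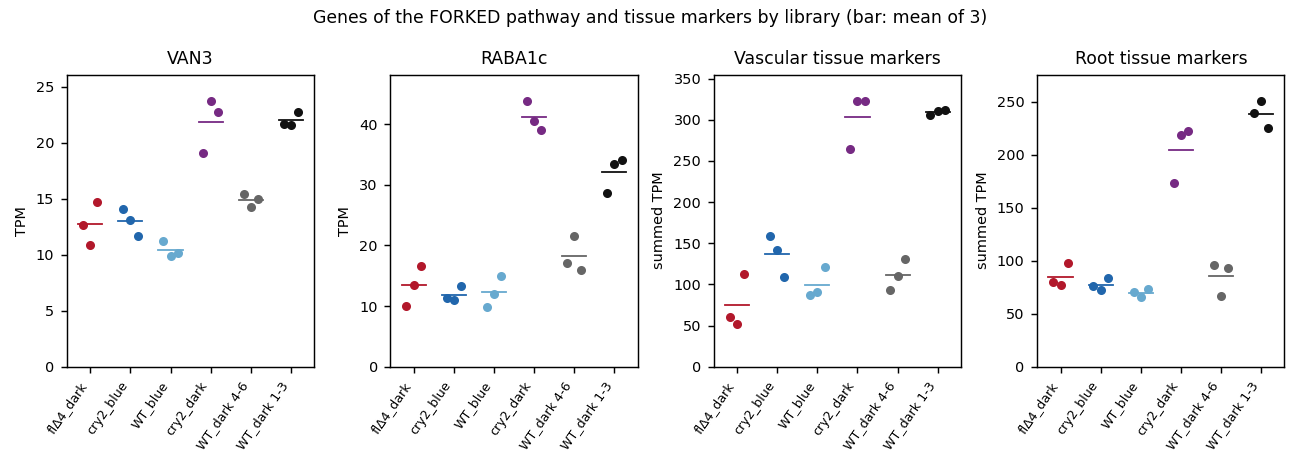
TPM of VAN3 and RABA1c, and summed TPM of the vascular and root markers, in each library by set (linear axes from 0, bars are means of 3). The vascular sum is 265 to 323 in cry2_dark and 306 to 312 in WT_dark 1-3, and at most 159 in the other 4 sets. VAN3 and RABA1c are also highest in cry2_dark and WT_dark 1-3.

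Outside the family, the genes most like each mutated member across the 18 libraries were AT3G28760 and AT3G59710 for FKD1 (Pearson r of log2(TPM + 1) 0.868 and 0.866), and AT5G41060 and SIP1 for FL1 (0.927 and 0.919). For FL2 they were AT2G20790 and MSH3, a DNA mismatch repair gene (0.830 and 0.825), and for FL3 AT3G08943 and PLDDELTA, a phospholipase D gene (0.951 and 0.946). The libraries fall into sets that share genotype and light. After removal of each set's mean, r was 0.72 and 0.59 for FKD1, 0.49 and 0.55 for FL1, 0.81 and 0.76 for FL2, and 0.65 and 0.76 for FL3. Between members, FL3 and AT5G47440 had r = -0.77 over the 18 libraries and -0.02 within sets.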

How the data were processed

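Per the submitters' processing notes, reads were handled with fastp, HISAT2 and StringTie on TAIR10 (their versions are not known here), and the authors deposited 1 table of TPM per library. Each TPM is relative to its library's total, and a change in very abundant RNAs shifts the rest. No read totals were used, so precision was judged from replicates alone.

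The deposited TPM were turned into log2(TPM + 1) values and fitted with limma 3.58.1 (R 4.3.3; trend, robust moderation), with the mean of at least 1 TPM as filter and Benjamini-Hochberg adjustment over all genes tested. One fit of 12 libraries served the light and cry2 comparisons and fits of 6 served flΔ4 and the dark sets. The procedure was tested on simulated data. For flΔ4_dark against WT_dark 4-6 it called 48% of 100 genes changed by 1 on the log2 scale and 88% of 100 changed by 2. For WT_blue against WT_dark 1-3 these shares were 74% and 97%. A gene that was not called may therefore still have changed. Coding sequences were aligned with biopython 1.88, and ratios were tested with scipy 1.17.1.

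All 9 members were named, with VAN3, RABA1c, up to 3 called genes with the largest change per list of traffic or vein patterning genes, and the 2 genes most like each mutated member. Tissue markers and overlapping neighbours were added beside results, and AGD1 and AGD2 were named after their values were seen. Members and lists were chosen with earlier results of these data known. RABA4e is not analysed here, and 1 partner gene of the rule is not reported here.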

Additional observations from a re-analysis of the deposited data

Results flagged for a closer look

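Among the 6 WT_dark libraries, AT4G16670 stood at 72.4 TPM in WT_dark 4, against 41.9 to 51.8 TPM in the other 5. This gap passed Dixon's 95% limit for a group of 6. Chance passes it in about 1 group in 20, and 9 members were looked at.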

How the results depend on the processing

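The count of members called moved with several choices. For flΔ4 against WT_dark 4-6 (1 called) it was 0 with no filter on low values (FL1 adjusted p = 0.0571). With a mean of at least 5 TPM it was 0, but FL1 was not among the 4 members tested, so its call could not appear. In one fit of all 18 libraries it was 2 (AT5G47440 beside FL1), where 13.9% of all genes were called in place of 0.304%. It was 0 to 2 when a library was left out, the 2 without flΔ4_dark 3, where 15.2% of all genes were called. Moderation without the robust option gave 0 (FL1 adjusted p = 0.0564). The adjusted p of FL1 ranged from 3.31e-05 to 0.178 over all alternatives. With WT_dark 1-3 the count was 5, FL3 was at -0.79 and AT5G47440 at 0.77, with or without a replicate block. In the 12-library fit and between the dark sets, the 5 TPM filter left only FKD1, FL3 and AT4G16670 to test. The counts were then 2 for WT_blue against WT_dark 1-3 (66.1% of all genes called) and 3 for cry2_blue against cry2_dark (60.3%). They were 1 for cry2_dark against WT_dark 1-3 (16.7%) and 2 between the dark sets (55.5%). With WT_dark 4-6 as the dark wild type they were 2 for wild type in blue light, where AT5G47440 was at -0.29, AGD1 at -0.18 and AGD2 at -0.21, and 2 for the interaction, where AT5G47440 was at 0.84, and in cry2_dark FL1 was at 0.60, FL3 at 0.43, AT5G47440 at -0.36 and VAN3 at 0.52. With all 6 dark libraries the counts were 3 for wild type in blue light and 0 for cry2_dark, beside 34.3% and 2.07% of all genes. One fit of 18 libraries gave 1 for cry2_dark, beside 9.53% of all genes. Leaving out a library gave 1 to 2 for cry2_dark, beside 5.2% to 9.2% of all genes. Between the dark sets it gave 2 to 5, beside 40.3% to 52.6%. Rescaling to nuclear protein-coding loci moved the median of all genes from -0.04 to -0.16 for wild type in blue light and from 0.08 to -0.04 between the dark sets, and FKD1 was then not called between the sets (adjusted p = 0.0688). Most same-numbered libraries did not deviate together (r of -0.06 to 0.23 over 18 pairs, median -0.01). The 2 pairs above 0.1 were WT_blue 2 with cry2_blue 2 (0.23) and WT_blue 3 with cry2_blue 3 (0.22). WT_blue 1 with cry2_blue 1 was at 0.01, so whether numbers pair the blue libraries is not settled. Numbers were used to name libraries, and the main fits pair none. A replicate block added AT5G57770 in cry2_blue against cry2_dark (adjusted p = 0.0353) and changed no other call of a member in the 12-library fit. No paired analysis was possible because flΔ4_dark and WT_dark 4-6 share no numbers in that comparison. Among changes of single genes under all alternatives, 1104 kept their direction and side of the threshold, 41 lost a call, 17 gained one, 12 changed sign with a call under either setting (those given above, 2 of them again under the replicate block) and 56 changed sign with no call. Of the counts for lists, 419 stayed within 1.5 times and 101 did not. The cause was not tested. What read depth limits is unknown, since TPM keep no totals.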
